A study of Mus musculus with 6 samples.

Results

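The genes described here encode the semaphorins, plexins, neuropilins, Slits, Robos and netrins with their receptors, the ligand and receptor families first known for guiding growing axons. They were chosen by gene symbol from the annotation of the array, with 1 probe set standing for each gene, and 47 of the 22180 genes measured matched. Of these, 46 encode proteins and 1, Plxna4os1, is a transcript named as lying opposite Plxna4. The arrays were hybridised with RNA from cultured mammary stem cells of the mouse, kept as organoids, which are epithelial cultures in 3 dimensions. There were 3 arrays from Mll3-null cells and 3 from wild-type (WT) cells, each labelled a biological replicate, and all were cultured the same way. The cell lines were made by CRISPR to ask what loss of MLL3 does. MLL3, the product of Kmt2c, is a histone methyltransferase that acts at enhancers. The labels do not say how many lines or clones the replicates come from, so each p-value reflects only how these samples vary, and that variation may be technical.

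Semaphorins are secreted or membrane-bound ligands that signal through plexins, and most of the secreted class 3 members first bind a neuropilin. Slits are secreted ligands of the Robo receptors, and netrins bind neogenin, DCC and the UNC5 family. In the mouse mammary gland, netrin-1 and neogenin help hold together the layers of the terminal end bud, and SLIT2 with ROBO1 acts in the adhesion and growth of the basal layer.

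The deposited values are log2 expression per probe set, so a difference of 1 is a 2-fold change, and a level can be compared between arrays but not between genes. A mean over the 6 arrays of at least 6 was taken as expressed and one under 4 as dim. By these limits 21 of the 47 genes were expressed (44.7%, against 39.5% of all genes), 16 lay in between and 10 were dim. Nrp1, at a mean of 5.97, lay just under the limit for expressed genes, and Unc5b at 6.06 and Plxnd1 at 6.09 just above it. The medians of the 6 arrays differed by little, the lowest being 4.35.

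Kmt2c itself did not separate the groups, with 5.84, 6.42 and 6.07 in Mll3-null replicates 1 to 3 against 6.63, 5.58 and 5.82 on WT arrays 1 to 3 (adjusted p = 0.95, limma). The position of its probe set within the gene was not analysed here, so this level does not check the genotype labels. The epithelial markers Epcam and Krt8 had means of 10.84 and 10.36 over the 6 arrays. The markers of fibroblasts (8 measured), endothelium (7) and immune cells (6) held no expressed gene. Among 6 genes listed as neural and glial markers, only Map2 and Sox10 were expressed (means 7.20 and 7.95). Whether their signal came from neural or glial cells was not tested. Mll3-null replicate 3 stood apart in the basal markers: Krt14 was at 6.65 there, while Mll3-null replicates 1 and 2 had 12.43 and 12.25 and the WT arrays 11.74 to 12.41. Many differences that rest on this array, though not all, are given with and without it.

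None of the 47 genes passed the test over all genes. In limma's moderated test 0 of the 22180 genes had an adjusted p under 0.05, a background of 0%, and the smallest adjusted p was 0.84. All differences below are therefore descriptions. At an unadjusted p under 0.05 there were 6 of the 47 genes, against 4.93% of all genes: Sema3c, Plxna1, Plxna2, Plxnd1 and Nrp1 with a lower mean in Mll3-null cells and Plxnc1 with a higher one. The background was 2.42% of genes for the lower side and 2.51% for the higher. The arrays of the 2 groups did not overlap for 8 of the 47, against 10.7% of all genes. Of these, 7 lay below WT, against 5.31%, and 1 lay above, against 5.44%. Nrp1, Sema3c, the plexin genes Plxna1, Plxna2 and Plxnd1, the netrin gene Ntn4 and the dim Sema3a were the 7, and Plxnc1 was the 1. Among the 21 expressed members 3 had an unadjusted p under 0.05, against 6.01% of expressed genes. Their groups did not overlap for 4, against 11.6%, and all 4 lay below WT, where 7.51% of expressed genes lay below and 4.14% above. A difference of at least 0.5 in size was seen for 6 of the 21, against 9.41%, with 5 on the lower side, against 5.56%, and 1 on the higher, against 3.85%. The median difference over all 47 was -0.02, and over all genes 0.01 (log2).

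Of the 10 expressed receptors 9 had a lower mean in Mll3-null cells (median difference -0.24) and of the 11 expressed ligands 6 did (median -0.02). Without Mll3-null replicate 3 the receptor count was 8 of 10 with a median of -0.07, and the ligand count 6 of 11 with a median of -0.06. The receptor median ran from -0.37 to -0.07 when each array was left out in turn. Among all 8752 expressed genes 55.1% had a lower mean, with a median of -0.02. Over the 21 expressed genes together the median was -0.13, with 15 lower and 6 higher, and without Mll3-null replicate 3 it was -0.06, with 14 lower and 7 higher. The Mll3-null arrays differed among themselves in this respect: the median deviation of the 21 genes from their own 6-array means was 0.11 in replicate 1, -0.04 in replicate 2 and -0.42 in replicate 3, and the WT arrays had 0.05 to 0.16.

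**Figure D1:**
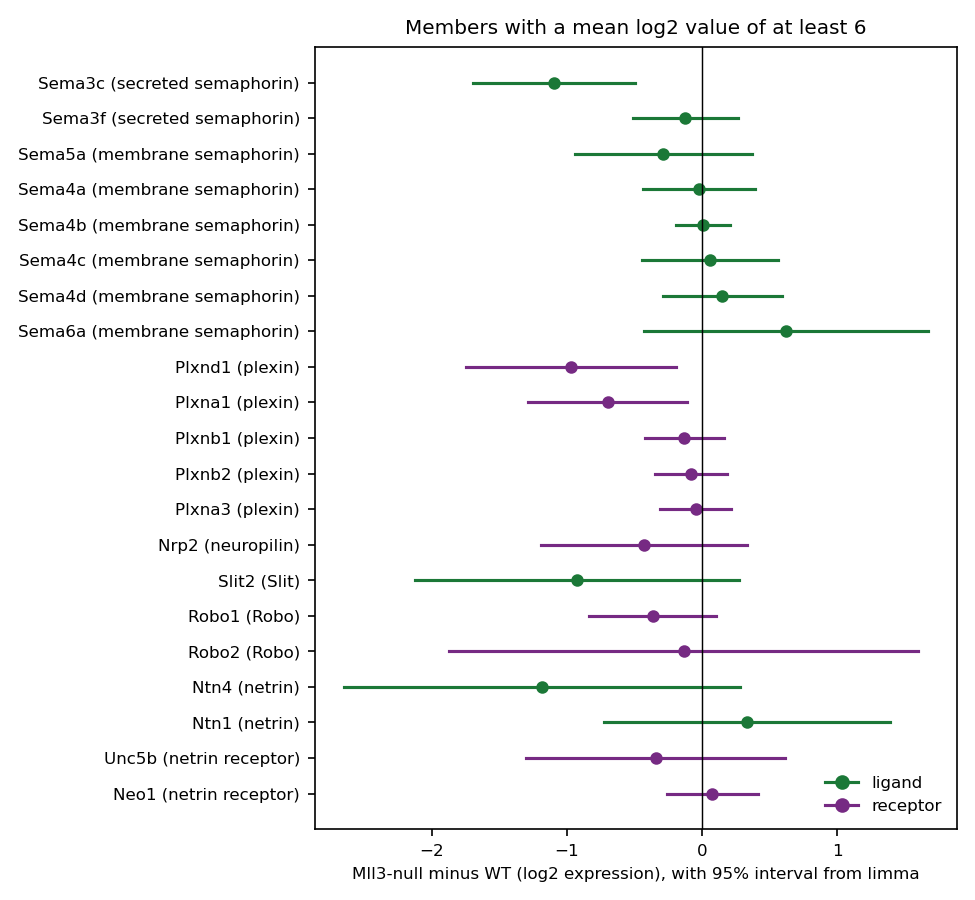
Difference in log2 expression between Mll3-null and WT cells (Mll3-null minus WT, points) with limma's 95% interval (lines) for the 21 expressed genes, grouped by family, ligands in green and receptors in purple. The intervals of Sema3c, Plxnd1 and Plxna1 lie wholly below 0, and those of Ntn4, Slit2 and Robo2 are wide.

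Among the secreted semaphorins, Sema3c differed most. Sema3c, a ligand that acts through neuropilins with A-type plexins and plexin D1, was at 6.55, 6.94 and 6.72 on Mll3-null arrays 1 to 3, against 7.37, 8.34 and 7.79 on WT arrays 1 to 3. All Mll3-null arrays lay below all WT arrays, and WT replicate 2 was the highest. The difference of -1.10 ± 0.25 (log2, SE, n = 3 each) corresponds to 2.14-fold lower expression, with an unadjusted p of 0.0037 and an adjusted p of 0.84 (limma). It stayed between -1.33 and -0.84 when any 1 array was left out, and was -1.09 without Mll3-null replicate 3.

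The other expressed class 3 gene showed no such gap. Sema3f, a neuropilin-2 ligand, was at 8.11, 8.13 and 7.57 in Mll3-null replicates against 8.04, 8.01 and 8.13 in WT replicates, so Mll3-null replicate 3 was low and the other 5 arrays lay close together. Its difference was -0.12, and 0.06 without Mll3-null replicate 3. Sema3e, the ligand that binds plexin D1 without a neuropilin, had 4.90, 5.19 and 4.57 in Mll3-null and 5.38, 5.27 and 5.14 in WT cells, with Mll3-null replicate 2 inside the WT range. Sema3b was spread widely in Mll3-null cells, from 4.56 in replicate 3 to 6.52 in replicate 2, around the WT range of 5.60 to 5.93. Sema3d was high on 1 array of each group, at 5.38 in Mll3-null replicate 2 and 5.32 in WT replicate 3, and between 3.71 and 4.40 elsewhere. Sema3g stayed between 4.64 and 4.99. Sema3a was dim on the whole, at 3.63 to 3.81 in Mll3-null and 3.82 to 4.02 in WT cells.

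A grouping of A-type plexins, plexin D1 and neuropilins, receptors of class 3 semaphorins, was made after the values were seen. Its counts therefore only describe it. Of its 7 genes 4 were expressed and 3 lay between the limits. A lower mean with an unadjusted p under 0.05 was found for 4 of the 7, against 2.42% of all genes. These were 4 of the 5 such members. The mean in Mll3-null cells was lower for 6 of the 7, against 48.5% of all genes. The median difference was -0.68, or -0.47 without Mll3-null replicate 3 and -0.44 without replicate 2. Plxna2, which also serves as a receptor of semaphorin 6A, was at 5.11, 4.91 and 4.91 on Mll3-null arrays 1 to 3, against 5.47, 5.74 and 5.75 on WT arrays 1 to 3. The groups were well apart and each was tight. The difference was -0.68 ± 0.12 (SE), or 1.60-fold lower, with an unadjusted p of 8.1e-04 and an adjusted p of 0.84 (limma). With each array left out in turn it ran from -0.77 to -0.63. Its mean of 5.32 over the 6 arrays lies under the limit for expressed genes.

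Plxna1, the receptor chain shared by several class 3 semaphorins, was at 8.90, 8.26 and 7.89 on Mll3-null arrays 1 to 3, against 8.96, 9.10 and 9.08 on WT arrays 1 to 3. Mll3-null replicate 1 lay just below the lowest WT array, and the other Mll3-null arrays lay further down. The difference of -0.70 ± 0.24 (1.62-fold lower, unadjusted p = 0.026, adjusted p = 0.84, limma) was -0.47 when Mll3-null replicate 3 was left out and -0.97 when replicate 1 was. A further, weaker probe set of Plxna1 differed by -0.06, with 5.67, 5.69 and 5.43 in Mll3-null and 5.56, 5.66 and 5.76 in WT cells. The probe sets thus gave different sizes, and their mean differed by -0.38.

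Plxnd1 was at 6.02, 5.95 and 4.83 on Mll3-null arrays 1 to 3, against 6.34, 6.59 and 6.78 on WT arrays 1 to 3. The groups did not overlap, and Mll3-null replicate 3 was 1.11 below the next array. The difference was -0.97 ± 0.33 (1.96-fold lower, unadjusted p = 0.022, adjusted p = 0.84, limma), and -0.59 without Mll3-null replicate 3. Nrp1, which also binds VEGF-A, was at 6.08, 4.87 and 5.76 in Mll3-null and 6.10, 6.55 and 6.45 in WT replicates. Here Mll3-null replicate 2 was the low array, and Mll3-null replicate 1 was level with WT replicate 1. The difference of -0.80 ± 0.31 (unadjusted p = 0.041, adjusted p = 0.84, limma) was -0.44 without Mll3-null replicate 2.

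Nrp2, the partner of semaphorin 3F, overlapped between the groups, at 8.67, 7.96 and 7.77 in Mll3-null and 8.67, 8.99 and 8.02 in WT replicates. Plxna3 was nearly level, at 6.38 to 6.58 in Mll3-null and 6.42 to 6.70 in WT cells (difference -0.05, 95% interval -0.31 to 0.22). Plxna4 was low throughout, between 4.02 and 4.37. The transcript Plxna4os1 was dim, between 3.55 and 4.06, and whether its signal can be told apart from that of Plxna4 was not tested.

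**Figure D2:**
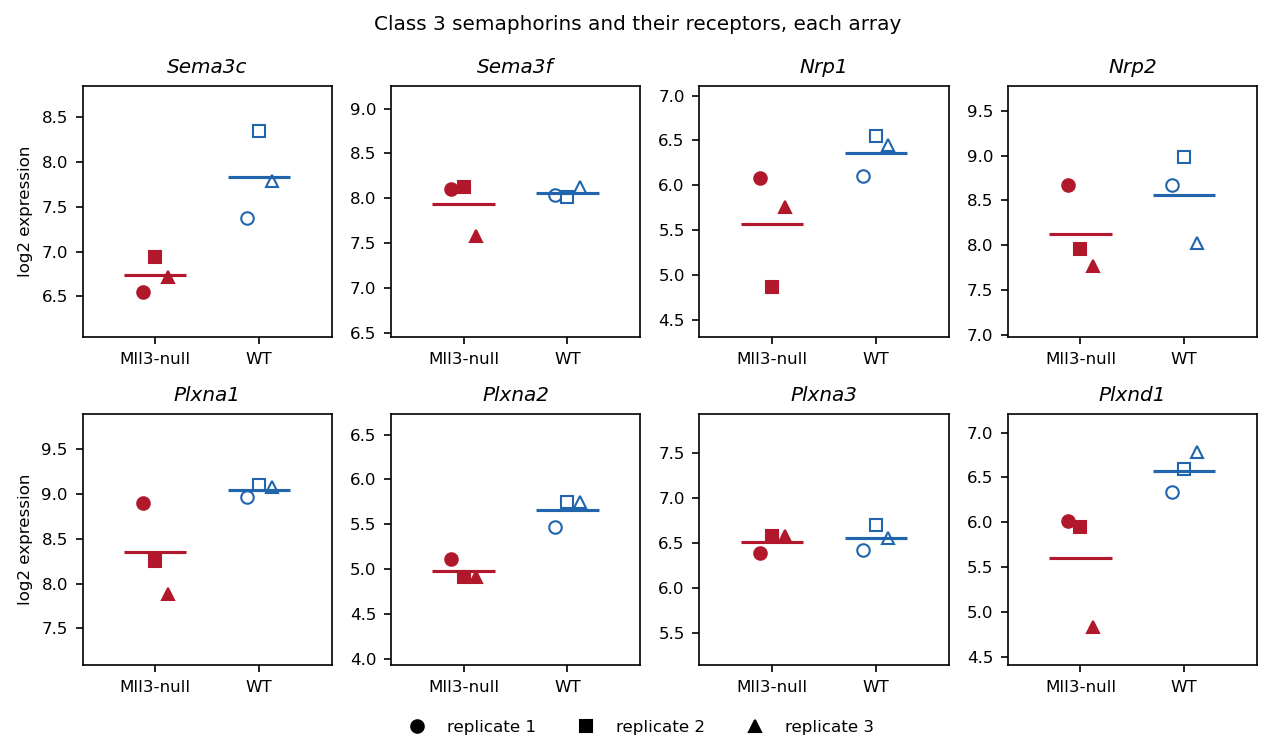
Log2 expression of Sema3c, Sema3f and 6 of their receptors on each array, Mll3-null left and WT right in each panel, with a line at the group mean and axes of equal span. Symbols mark the replicate number, which does not pair arrays across groups. Sema3c, Plxna2, Plxnd1, Plxna1 and Nrp1 show Mll3-null arrays below all WT arrays, while Sema3f, Nrp2 and Plxna3 overlap.

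Sequence upstream of the start sites is shown for Sema3c, Plxna2 and Plxnd1, genes whose groups did not overlap, and for Slit2, described below. Nrp1, Ntn4, Sema3a and Plxnc1, whose groups also did not overlap, are not printed. The windows shown therefore do not stand for all such genes. Plxna1 was not matched in the promoter table, and 38 of the 46 protein-coding genes were, with 51 windows. The sequences are RefSeq's for build GRCm38.p6 and hold the 250 bases before the listed start, 5′ to 3′ on the strand of the gene. Capitals mark the core of the hypoxia response element, searched as ACGTG and GCGTG on both strands, a motif that overlaps the E-box CACGTG. It was searched because Vegfa, a target of the hypoxia-inducible factors and a neuropilin ligand, had the smallest p among the related genes described at the end.
Sema3c (chr5:17574566-17574815, plus strand): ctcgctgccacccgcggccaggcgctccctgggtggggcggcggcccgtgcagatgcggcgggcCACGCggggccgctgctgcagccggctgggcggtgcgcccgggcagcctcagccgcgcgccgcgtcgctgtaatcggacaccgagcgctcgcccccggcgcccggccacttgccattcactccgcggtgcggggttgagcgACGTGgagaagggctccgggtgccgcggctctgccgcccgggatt
Plxna2 (chr1:194619579-194619828, plus strand): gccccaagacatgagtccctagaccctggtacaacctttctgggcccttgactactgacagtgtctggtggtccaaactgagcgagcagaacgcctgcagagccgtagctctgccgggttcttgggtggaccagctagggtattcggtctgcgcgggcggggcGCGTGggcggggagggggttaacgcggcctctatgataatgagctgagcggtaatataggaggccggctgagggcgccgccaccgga
Plxnd1 (chr6:115995006-115995255, minus strand): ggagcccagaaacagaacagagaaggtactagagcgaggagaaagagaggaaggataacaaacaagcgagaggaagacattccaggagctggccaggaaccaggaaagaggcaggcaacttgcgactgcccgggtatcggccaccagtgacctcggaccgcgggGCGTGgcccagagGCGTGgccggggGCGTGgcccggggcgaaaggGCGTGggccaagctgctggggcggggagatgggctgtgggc
Slit2 (chr5:47982905-47983154, plus strand): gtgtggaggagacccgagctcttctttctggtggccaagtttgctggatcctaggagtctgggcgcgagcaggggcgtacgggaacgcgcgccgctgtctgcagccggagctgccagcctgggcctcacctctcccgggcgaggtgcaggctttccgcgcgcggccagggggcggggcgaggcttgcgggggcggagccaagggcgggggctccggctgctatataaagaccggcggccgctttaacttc
The motif was found 2 times for Sema3c, 1 time for Plxna2, 4 times for Plxnd1 and 0 times for Slit2. It stood in 43.1% of the 51 windows of the guidance genes and in 38.6% of all 32851 promoter windows. The windows of the guidance genes were rich in G and C, with a median of 64.4% against 52.4% of bases over all windows, and the 4 printed here ran from 62.8% to 78.4%. The letters TATAAA, read on both strands, were in 1.96% of their windows, against 12.4% of all, and CCAAT in 17.6%, against 33.8%. These are matches of letters and not tests of binding.

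Among the plexins of the other classes, those of class B differed little between the groups. Plxnb1, the receptor of semaphorin 4D, ranged from 7.76 to 8.18 in Mll3-null and from 8.10 to 8.12 in WT cells. Plxnb2, a receptor of class 4 semaphorins that is prominent in epithelia, lay at 9.75 to 10.04 in Mll3-null and 9.85 to 10.07 in WT cells. Its difference of -0.08 had a 95% interval from -0.36 to 0.19. Plxnb3 was dim, between 3.74 and 4.05. Plxnc1, the receptor of semaphorin 7A, was the only member above WT on all Mll3-null arrays, at 3.52, 3.52 and 3.33 in Mll3-null and 3.17, 3.25 and 3.12 in WT replicates. Its difference of 0.28 ± 0.09 (SE, unadjusted p = 0.024, adjusted p = 0.84, limma) concerns a dim probe set, under 4 on every array.

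Membrane-bound semaphorins showed no gene at an unadjusted p under 0.05 among 13, against 4.93% of all genes. The list is too short for this count to set it apart. Of the 6 expressed ones 4 had a higher and 2 a lower mean in Mll3-null cells (median 0.03). Sema6a, a ligand of plexins A2 and A4, was the only expressed guidance gene with a mean at least 0.5 higher. It was at 6.71, 8.36 and 8.21 on Mll3-null arrays 1 to 3, against 6.86, 7.15 and 7.42 on WT arrays 1 to 3. Mll3-null replicate 1 lay below every WT array and the other Mll3-null arrays above every one, so the groups overlapped. The difference was 0.62 ± 0.44 (SE, unadjusted p = 0.20, adjusted p = 0.84, limma), and 1.15 without Mll3-null replicate 1 or 0.32 without Mll3-null replicate 2.

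Sema4d, the plexin B1 ligand, stood out on Mll3-null replicate 3 at 6.86, the remaining 5 arrays lying between 6.19 and 6.34. Its difference was 0.15, and -0.06 without that array. Sema4a, known also as an immune co-stimulatory ligand, ranged from 7.76 to 8.38 in Mll3-null and 7.96 to 8.25 in WT cells. Sema4b was the steadiest of the expressed members, at 7.43 to 7.51 in Mll3-null and 7.39 to 7.51 in WT cells. Its difference was 0.01, with a 95% interval from -0.19 to 0.20. Sema4c, a plexin B2 ligand, ranged from 7.28 to 7.73 in Mll3-null and 7.19 to 7.88 in WT cells. Sema5a, which carries thrombospondin repeats, ranged from 7.02 to 7.79 in Mll3-null and 7.23 to 8.08 in WT cells.

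Below the limit for expressed genes, Sema4g had 4.06, 4.79 and 5.28 on the Mll3-null arrays 1 to 3 and 4.11 to 4.31 on the WT arrays, with replicate 1 under the WT range and the others over it, the same order of arrays against WT as for Sema6a. Sema6d ranged from 5.35 to 6.12 in Mll3-null and 5.27 to 5.86 in WT cells. Sema5b stayed between 5.11 and 5.39 on all arrays. Sema7a, the membrane-anchored ligand of plexin C1, ran from 3.93 to 4.44 in Mll3-null and 4.04 to 4.59 in WT cells, and Sema6c from 3.96 to 4.27 over all arrays. Sema6b and Sema4f were dim on the whole, with means of 3.99 and 3.53.

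In the Slit and Robo families 3 of 7 genes were expressed. None had an unadjusted p under 0.05, against 4.93% of all genes, in a list too short for this count to set it apart. Slit2 was at 8.98, 7.79 and 6.83 on Mll3-null arrays 1 to 3, against 8.67, 9.02 and 8.68 on WT arrays 1 to 3. Mll3-null replicate 1 lay within the WT range and the others below it. The difference of -0.92 ± 0.50 (SE, unadjusted p = 0.11, adjusted p = 0.84, limma) was -0.41 when Mll3-null replicate 3 was left out and -1.48 when replicate 1 was. Its receptor Robo1 was at 8.43, 8.34 and 7.75 in Mll3-null and 8.49, 8.72 and 8.41 in WT replicates. Mll3-null replicate 1 overlapped the WT range, and replicate 3 was 0.59 below every other array. The difference was -0.37, and -0.16 without replicate 3.

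Robo2, a further Slit receptor, varied more than any other expressed member between Mll3-null arrays, at 6.61, 7.68 and 4.85, against 6.98, 6.86 and 5.71 in WT replicates. Both its highest and its lowest array were Mll3-null, and the difference of -0.14 was 0.63 without Mll3-null replicate 3. Slit1 and Slit3 lay between 4.33 and 4.91 on all arrays. Robo3 and the endothelial gene Robo4 were dim, between 3.56 and 3.83.

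Among netrins, Ntn4 had the widest difference in group means of all 47 genes. Ntn4, a basement membrane netrin that binds laminin, was at 8.26, 8.24 and 5.95 on Mll3-null arrays 1 to 3, against 8.69, 8.88 and 8.44 on WT arrays 1 to 3. The groups did not overlap, but replicates 1 and 2 were close to the lowest WT array and replicate 3 was 2.28 below all others. The difference of -1.19 ± 0.61 (SE, unadjusted p = 0.096, adjusted p = 0.84, limma) was -0.42 without Mll3-null replicate 3.

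Ntn1, encoding netrin-1, ran the other way on the same array. It was at 6.88, 7.47 and 8.70 in Mll3-null and 7.17, 7.24 and 7.64 in WT replicates, with replicate 3 1.06 above every other array and replicate 1 below the WT range. The difference was 0.33 with all arrays and -0.17 without replicate 3. Its receptor neogenin, Neo1, was steady, at 8.91, 8.58 and 9.07 in Mll3-null and 8.71 to 8.83 in WT cells (difference 0.07, 95% interval -0.26 to 0.41). Unc5b, the expressed member of the UNC5 netrin receptors, was at 6.74, 5.84 and 5.10 in Mll3-null and 6.31, 5.92 and 6.47 in WT replicates, so Mll3-null arrays lay on both sides of WT. Its difference was -0.34, and 0.05 without Mll3-null replicate 3. Unc5a and Unc5c had means of 4.29 and 4.38, and Unc5d, at 3.83, and Ntn3, at 3.85, were dim. Ntn5 shares both its probe sets with Sec1 and has no value of its own here.

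**Figure D3:**
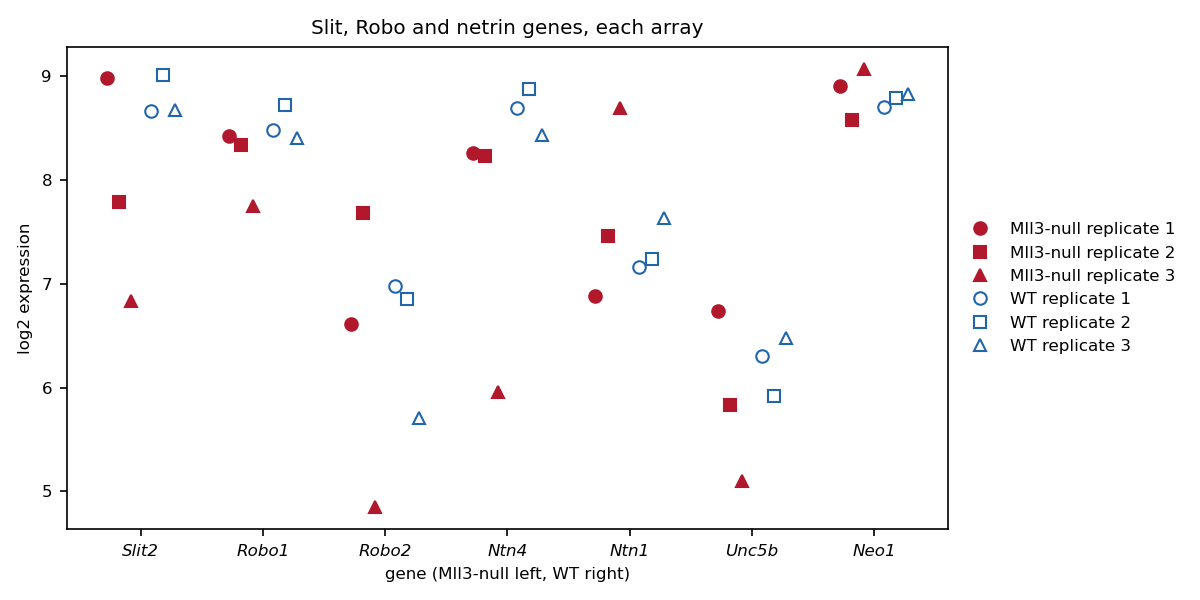
Log2 expression of the expressed Slit, Robo, netrin and netrin receptor genes on each array, Mll3-null filled and to the left, WT open and to the right. Mll3-null replicate 3 (filled triangles) is the lowest array for Slit2, Robo1, Robo2, Ntn4 and Unc5b and the highest for Ntn1 and Neo1.

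Mll3-null replicate 3 was the lowest of the 6 arrays for 12 of the 21 expressed genes, against 28.3% of all expressed genes, and the highest for 3, against 30.8%. It lay at least 0.5 below all other arrays for 6 genes, against 7.08% of expressed genes: Plxnd1, Slit2, Robo1, Robo2, Ntn4 and Unc5b. It lay at least 0.5 above them for Sema4d and Ntn1, against 4.28%. WT replicate 2 was the highest array for 9 of the 21, against 14.8%. Part of the basal marker list was low on Mll3-null replicate 3. Krt14, Krt17, Trp63, Acta2 and Itgb4, 5 of the 10 measured, lay at least 0.5 below all other arrays there, while Oxtr lay above them at 8.35. Over the 10 genes the Mll3-null arrays 1 to 3 had mean levels of 7.39, 7.66 and 5.62 and the WT arrays 7.16 to 7.38. Trp63, the basal transcription factor p63, was at 5.02 there and 7.86 to 8.84 elsewhere. The mean of 11 luminal markers was 9.03, 9.02 and 9.48 on the Mll3-null arrays and 8.65 to 9.23 on the WT arrays. Single luminal genes varied more than this mean. Kit was at 5.92, 8.76 and 8.16 in Mll3-null and 6.78, 5.38 and 6.83 in WT replicates. Foxa1 was at 9.43, 6.46 and 9.21 in Mll3-null and 8.87, 8.52 and 9.06 in WT replicates. Elf5 and Gata3 lay at least 0.5 above all other arrays on Mll3-null replicate 3. The 6 neural and glial markers had 5.55, 6.04 and 6.23 on the Mll3-null arrays and 5.26 to 5.73 on the WT arrays. All 6 had a higher Mll3-null mean, against 51.5% of all genes. Groups did not overlap for Snap25 and Gfap, against 10.7% of all genes. Both lay under the limit for expressed genes (means 4.48 and 4.39) and differed by 0.27 and 0.18. Map2 and Sox10 lay at least 0.5 above all other arrays on Mll3-null replicate 3. List means of the other types were 4.08 to 4.30 in Mll3-null and 4.04 to 4.23 in WT cells for fibroblasts, 3.77 to 3.85 and 3.70 to 3.86 for endothelium, and 3.77 to 3.91 and 3.81 to 3.86 for immune cells. Fewer basal cells and less of these RNAs per cell cannot be told apart in such samples, and the part of cell makeup in the guidance genes was not tested. Leaving this array out gave a difference of -1.09 for Sema3c and -0.64 for Plxna2. That step does not remove differences in cell makeup, as luminal markers also varied among the remaining arrays.

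**Figure D4:**
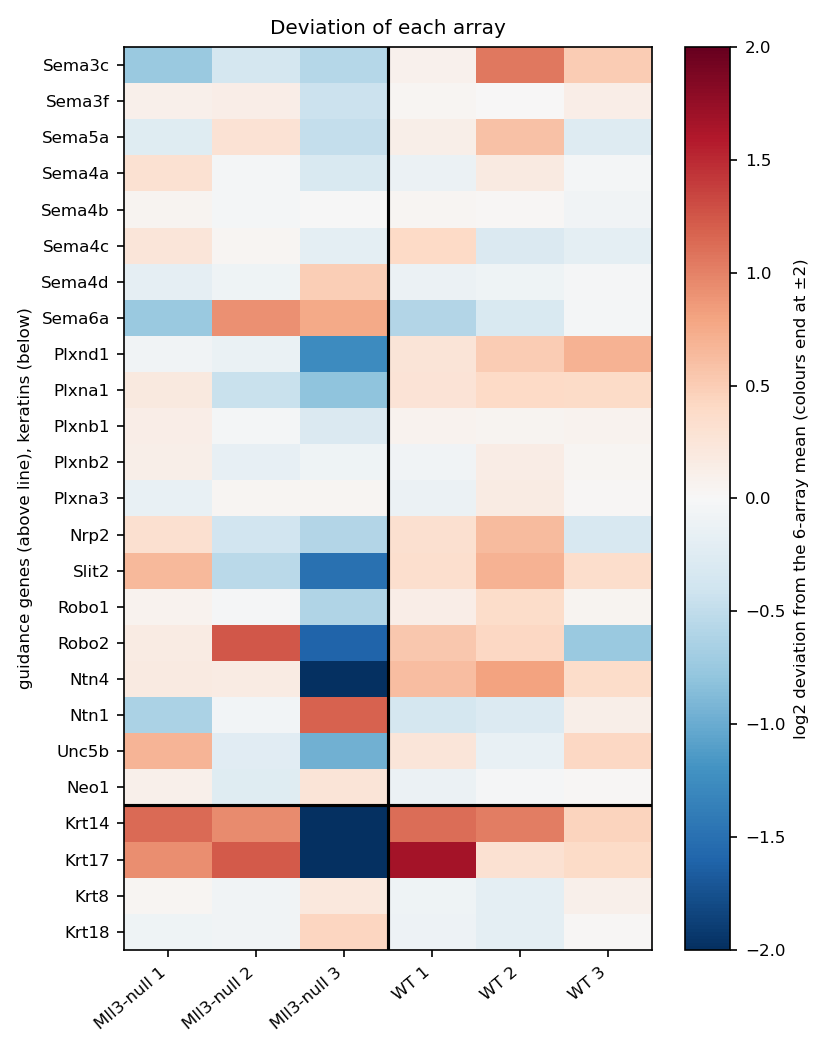
Deviation of each array from the 6-array mean of each gene (log2, colours ending at 2 units) for the 21 expressed guidance genes, with Krt14 and Krt17 (basal) and Krt8 and Krt18 (luminal) under the line. The third column, Mll3-null replicate 3, holds the deepest blue for Ntn4, Slit2, Robo2 and the basal keratins.

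Some members lie on chromosomes whose genes were shifted on single arrays. The 510 expressed genes of chromosome 1, home of Plxna2, Nrp2 and Sema4c in the RefSeq annotation, had a median deviation of 0.30 in Mll3-null replicate 3 and 0.09 in replicate 2, each taken from the median of the 6 arrays. Plxna2 and Nrp2 lay below their WT means on those arrays. The 443 expressed genes of chromosome 10, home of Ntn4, Unc5b and Plxnc1, had 0.22 in WT replicate 1. The part of these shifts in the values of the 6 genes was not tested.

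The list of other genes of these pathways held 62 co-receptors, effectors and linked ligands, 58 of them measured, and 3 had an unadjusted p under 0.05, against 4.93% of all genes. Mean levels were higher in Mll3-null cells for 27 of the 58 and lower for 31 (median difference -0.02). Vegfa, the angiogenic factor that binds neuropilins, was at 9.71, 9.39 and 9.46 on Mll3-null arrays 1 to 3, against 8.61, 8.06 and 8.28 in WT, a difference of 1.21 ± 0.16. Srgap1, a GTPase-activating protein that works downstream of Robo, was at 6.33, 6.36 and 6.07 in Mll3-null and 6.48, 7.03 and 6.69 in WT replicates (difference -0.48 ± 0.16). Trio, a guanine nucleotide exchange factor used in netrin signalling, was at 7.78, 7.68 and 7.37 in Mll3-null and 7.85, 8.03 and 8.04 in WT replicates (difference -0.36 ± 0.13). All 3 had non-overlapping groups and adjusted p-values of 0.84 (limma). Over the whole list groups did not overlap for 5 of the 58, against 10.7% of all genes.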

How the data were processed

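Gene expression was measured on single-channel Affymetrix arrays, 3 from Mll3-null and 3 from WT cells. Biotinylated cRNA was made from total RNA, per the labels' protocols. The authors processed the arrays with Affymetrix Expression Console, per the submitters' processing notes. For its version, its normalization and the build, the sources used here give nothing. The deposited table holds log2 expression, a scale read from its range (1.72 to 13.56). Upper quartiles of 6.51 to 6.59 show that arrays were already scaled alike, which hides any change in total RNA per cell. Detection calls were not part of the table. Arrays have no read depth, and their number limits the precision.

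Of 41345 probe sets 23521 carried exactly 1 gene symbol in the platform annotation. Each gene was read by its brightest probe set (by mean over the arrays), giving 22180 genes. A two-sided test of genotype, with no other term, was run on the 6 arrays in limma 3.58.1 (R 4.3.3, functions lmFit and eBayes), with Benjamini-Hochberg adjustment over all 22180 genes, and the guidance genes were read from that fit. The genes, lists and limits were chosen with earlier results of these data known. Statistics are given for genes with an unadjusted p under 0.05 and, among expressed genes, for a difference of at least 0.5. Of the 58 related genes measured, those with an unadjusted p under 0.05 are named, and marker lists are given by their array means. The fit was tested on simulated data. The alternatives were other variance models, weighting of arrays, limits on dim genes, further normalization, averaging of probe sets, the replicate block and omission of each array. Both groups use the numbers 1 to 3, but same-numbered arrays' deviations correlated at 0.03, 0.08 and 0.31, and no label ties them, so no block was used.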

Additional observations from a re-analysis of the deposited data

How the results depend on the processing

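The count of genes past the adjusted threshold was 0 under every alternative run, also at an adjusted p under 0.1, and 1093 genes had an unadjusted p under 0.05. The 9 guidance genes given with statistics kept their direction under all alternatives run for them. At an unadjusted p under 0.01 there were 2 guidance genes (Sema3c and Plxna2), and the share of all genes at that limit was not counted. The count of guidance genes at an unadjusted p under 0.05, 6 as reported, was 10 with array weights (11.3% of all genes). It was 3 when only genes with a mean of at least 6 were fitted (21 members, 5.12% of genes). With 1 array left out it ran from 2 (without WT replicate 3; Sema3c and Plxna2; 3.81% of all genes) to 12 (without Mll3-null replicate 1, where 12.4% of all genes had such a p), and it was 3 without WT replicate 2 (4.17%) and 6 without Mll3-null replicate 3 (3.87%). The count with non-overlapping groups, 8 as reported, was 4 among genes with a mean of at least 6, against 11.6% of all such genes. It ran from 10 to 18 with 1 array left out, where groups of 2 against 3 separate more easily. The share of all genes was not counted with 1 array left out, so this range cannot be read as a trait of the guidance genes. The count of related genes, 3 as reported, was 10 with array weights and ran from 1 (without Mll3-null replicate 3) to 12 (without Mll3-null replicate 1), with the same shares of all genes beside them. With the replicate block, where 5.82% of all genes had such a p, it was 10, and the count of guidance genes was 8, of which 5 were among the 6. This block rests on shared numbers only. The median difference of the expressed guidance genes, -0.13 as reported, ran from -0.23 to -0.06 with 1 array left out. The difference of Kmt2c, 0.10 as reported, ran from -0.11 (without WT replicate 2) to 0.41 and was -0.06 without Mll3-null replicate 2. Small differences changed sign: with array weights Robo2 had 0.62, Plxna3 0.0040, Sema4b -0.014 and Neo1 -0.077, and with median centring Sema4b had -0.014. With 1 array left out Plxna3 ran from -0.11 to 0.023, Sema4b from -0.031 to 0.031 and Neo1 from -0.035 to 0.21. Ntn1 ran from -0.17 to 0.73, Sema3f from -0.22 to 0.059 and Sema4d from -0.060 to 0.28. Robo2 ran from -0.79 to 0.63 and Unc5b from -0.77 to 0.053. For Neo1, Ntn1, Sema3f, Sema4d, Robo2 and Unc5b the sign turned without Mll3-null replicate 3 (for Robo2 also without WT replicate 1 or 2). The causes of these moves were not tested. Dim genes, where 1 probe set lies near the floor of the array, limit what can be said of the 10 members under 4.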
